A study of Mus musculus with 2 samples.

Results

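A population of cells with high T and Shh was examined within a mouse culture in which AMPK activation was used to return primed epiblast stem cells to the naive state. The cells were selected on a score, the mean over 7 genes (T, Shh, Col2a1, Pomc, Lrrn3, Car3 and Tshr) of the natural logarithm of 1 plus the reads of the gene per 10000 reads of the cell. The 400 cells with the highest score among the 9627 cells of the d8 population were taken, which is 4.15% of d8 cells and a small part of the 17720 cells in the table. They are called d8 T/Shh cells here, and the other 9227 cells of the same tag are called other d8 cells.

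The d8 cells were primed mouse epiblast stem cells of the Oct4GIP line, which carries an Oct4-GFP reporter, treated for 8 days with AICAR, which activates AMPK, plus the cytokine LIF. The d16 cells had the same treatment for 16 days. The primed cells were the untreated Oct4GIP cells, which are kept in FGF2 and activin. The naive cells were mESCs of a line that reports Rex1 with GFP, and the d16+10p cells were d16 cells grown for 10 further passages in 2iL, a naive medium with 2 inhibitors and LIF. The treatment was carried out on mouse embryonic fibroblast feeders, so the d8 and d16 tubes could also hold feeder cells. In the primed population, the paper regarded the cells without Oct4 as feeders. All 5 populations were tagged and pooled in 1 library, with 1 sample each. There was no replicate, so no test was made, and each interval below is a 95% interval that covers counting error only. Levels are given in CPM, that is, the reads a gene had over all cells of a group for every 1000000 reads of that group, and they are compared between groups of cells and not between genes.

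The notochord is the rod of mesoderm below the neural tube. It keeps the T-box factor T (Brachyury) on, secretes Sonic hedgehog to pattern the neural tube and somites, and makes a sheath that is rich in type II collagen. In the embryo it arises from the node, where Noto, Foxa2 and Chrd are active, and Foxa1, Foxa2, Sox5, Sox6 and Sox9 maintain its cells and sheath.

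The promoters of 3 genes are shown because T defines these cells, Foxa1 was the leading forkhead gene among genes outside the score, and Samd3 was the leading gene with a T-box motif in its window. Each is the 250 bases before a RefSeq transcript start in GRCm38.p6, written 5′ to 3′ on the strand of the gene. Capitals mark a match, on either strand, to one of 5 motifs: GGTGTGA (T-box), TGTTTAC (forkhead), ACAATGG (Sox), ACCACCC (Gli) and CTTTGAT (TCF/LEF). These motifs were searched as written, and matches did not overlap in the windows shown.
T (chr17:8434173-8434422, plus strand): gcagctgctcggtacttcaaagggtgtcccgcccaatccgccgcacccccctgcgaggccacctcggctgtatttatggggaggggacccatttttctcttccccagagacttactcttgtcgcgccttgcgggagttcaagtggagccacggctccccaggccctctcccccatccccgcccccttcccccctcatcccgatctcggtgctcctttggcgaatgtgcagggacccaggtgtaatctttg
Foxa1 (chr12:57546112-57546361, minus strand): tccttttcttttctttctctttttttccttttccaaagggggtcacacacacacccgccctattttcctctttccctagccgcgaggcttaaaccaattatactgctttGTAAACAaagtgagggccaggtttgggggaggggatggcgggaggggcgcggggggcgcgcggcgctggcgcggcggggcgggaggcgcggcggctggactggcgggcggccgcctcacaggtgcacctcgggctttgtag
Samd3 (chr10:26229457-26229706, plus strand): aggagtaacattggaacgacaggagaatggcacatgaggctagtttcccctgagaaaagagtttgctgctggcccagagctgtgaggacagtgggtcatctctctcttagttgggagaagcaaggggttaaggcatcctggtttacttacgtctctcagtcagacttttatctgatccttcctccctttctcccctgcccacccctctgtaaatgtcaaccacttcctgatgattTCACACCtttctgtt

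The T window held none of the 5 motifs. The Foxa1 window held the forkhead motif, and the Samd3 window held the T-box motif. Promoters were found for 19 of the 27 score and leading genes, as 22 windows. Of these windows, 3 held the forkhead motif, 1 the T-box motif and 1 the Sox motif, and 0 held the Gli or the TCF/LEF motif. Over all 32851 promoters, 3.17% held the forkhead motif, 3.33% the T-box motif, 3.02% the Sox motif, 3.92% the Gli motif and 3.21% the TCF/LEF motif. A match is a description of the letters and not a binding site.

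The score fell steeply and without a gap at the limit. The highest d8 cell scored 2.66, the 200th 1.59, the 400th 1.17 and the 800th 0.479, and the median of the other d8 cells was 0.108. The last member had 15148 reads, of which 14 were of T, 24 of Shh, 12 of Col2a1 and 2 of Tshr. The first cell outside had 11856 reads, of which 40 were of T, 4 of Shh, 9 of Col2a1 and 2 of Car3. The limit therefore divides a continuous range of cells.

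The score genes set the members, so their levels describe the choice and were not tested. T, a protein-coding gene like the other 6 and at chr17:8434423-8442496 in GRCm38, was summed at 1234 CPM (1205 to 1263) in the d8 T/Shh cells and at 35.4 CPM (34.5 to 36.3) in the other d8 cells. Per cell, T ran from 0 over a median of 1192 to 4050 CPM, and 399 of the 400 cells had a T read. Shh (chr5:28456815-28467256), the hedgehog ligand, was at 923 CPM (899 to 949) against 26.5 CPM (25.7 to 27.2), with a lowest, median and highest cell of 0, 841 and 4606 CPM. T and Shh were thus spread over nearly all members, since 375 of 400 cells had reads of both, against 5.9% of the other d8 cells.

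Col2a1 (chr15:97975602-98004695) encodes type II collagen, the main collagen of cartilage and of the notochordal sheath. It was at 1475 CPM against 50.5 CPM, and the lowest, median and highest member had 0, 1049 and 11452 CPM. Lrrn3 (chr12:41451668-41486431), a neuronal leucine-rich repeat membrane protein, was at 216 CPM against 4.34 CPM, with a lowest, median and highest member of 0, 171 and 1526 CPM. Tshr (chr12:91384563-91549808), the receptor of thyrotropin, was at 161 CPM against 4.96 CPM, with 0, 100 and 1340 CPM in the lowest, median and highest member. These genes were broad among the members too, with a read in 96.5% (Col2a1), 71.5% (Lrrn3) and 66% (Tshr) of them.

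Pomc and Car3 were spread less evenly. Pomc (chr12:3954951-3960642) encodes the precursor of ACTH and other melanocortin peptides, and it was at 663 CPM against 10.1 CPM. Only 157 of 400 members had a Pomc read, so the median member was at 0 while the highest reached 13820 CPM. The 60 members over 1000 CPM held 87.3% of the Pomc reads. Car3 (chr3:14863512-14872523), a carbonic anhydrase, was at 1984 CPM against 84 CPM, and its lowest, median and highest member had 0, 725 and 23097 CPM.

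Reads of these genes also occurred in cells that should lack them. Macrophages are not known to make T or Shh, and the 400 d8 cells with the highest score over 7 macrophage genes (C1qa, C1qb, C1qc, Tyrobp, Fcer1g, Lyz2 and Csf1r) served as that background. In these, 19.8% of cells had a T read and 17% a Shh read, at 14.3 and 13.4 CPM, with a median of 18938 reads per cell. The d8 T/Shh cells had a median of 12960 reads and the other d8 cells one of 15628, so the members were the shallower cells. Mitochondrial genes took 7.89% of the reads of the members and 6.47% of those of the other d8 cells. When each cell was thinned to 5000 reads, 98.2% of the members, 8.99% of the other d8 cells and 6.3% of the macrophage-score cells kept a T read. For Shh the thinned shares were 89.1%, 8.48% and 5.25%, and for Pomc 31.2%, 3.83% and 3.15%. The shares of the other d8 cells lay a little above those of the macrophage-score cells, and those of the members lay far above both. Thinning left out 16 of the 400 members by depth, as 384 had at least 5000 reads.

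**Figure D1:**
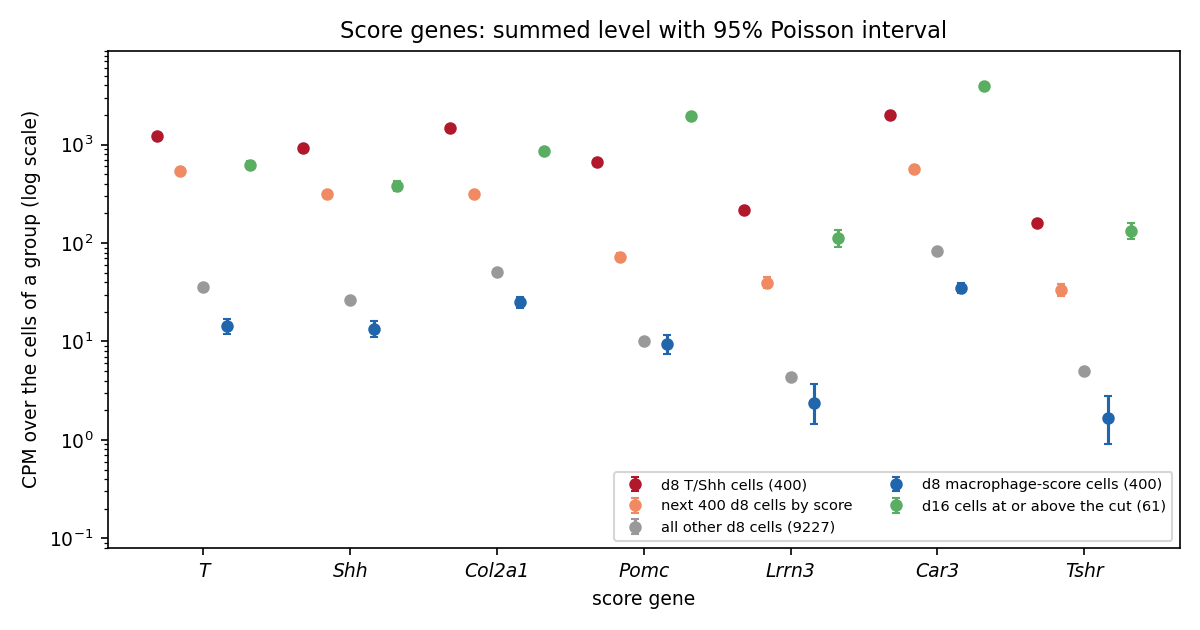
Summed level of the 7 score genes in CPM (log axis) in 5 groups of cells, with 95% Poisson intervals that cover counting error only. The d8 T/Shh cells lie above the other d8 cells in all 7 genes because the genes chose them, the next 400 cells by score lie between, and the d16 cells are higher than the d8 T/Shh cells in Pomc and Car3 and lower in T, Shh, Col2a1 and Lrrn3, while the intervals of Tshr overlap.

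When each gene was left out in turn and the 400 cells were chosen on the other 6, the gene left out was still higher in the chosen cells. Its log2 ratio ran from 4.21 for Car3 to 4.99 for Lrrn3, and 362 to 384 of the cells were members. T, for example, was at 1153 CPM in the cells chosen without it and at 37.3 CPM in the others, and 99.5% of those cells had a T read. All 7 genes were first proposed from these same cells, so this describes how they go together and is no test.

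The members also lay together when the score genes were left out. Neighbours were the 15 nearest d8 cells in 30 principal components of 2000 variable genes without the score genes. Of the neighbours of members, 78.8% were members, and members are 4.15% of d8 cells. No interval is given for this share, because the same cells recur among the neighbours of many members. For 348 of the 400 members more than 50% of the neighbours were members, and for 4 none was. Ranked by score, the share was 92.7% for ranks 1 to 100, 63.3% for ranks 301 to 400, 46.5% for ranks 401 to 500 and 9.4% for ranks 601 to 700. Cells just below the limit thus shared the neighbourhood of the members, and cells below about rank 700 did not.

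The 20 leading genes, defined below, were picked for their ratio between ranks 1 to 400 and the rest, so a lower level beyond rank 400 follows from that choice. They summed to 4575 CPM in ranks 1 to 100, 2652 CPM in ranks 301 to 400, 2096 CPM in ranks 401 to 500, 521 CPM in ranks 701 to 800 and 219 CPM beyond rank 2400. Foxa1 went from 263 CPM in the first 100 cells to 208 CPM in ranks 301 to 400 and 39.5 CPM in ranks 701 to 800. Of listed genes that were not among the 20, Sox9 had 369, 255 and 105 CPM in the same bins, Nog 145, 113 and 32.7 CPM, and Foxa2 2.86, 11.9 and 8.01 CPM. Rspo3 was lower in the first 100 cells (199 CPM) than in ranks 301 to 400 (353 CPM) and was still at 320 CPM in ranks 501 to 600. Genes outside the score thus did not share 1 order along the score.

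**Figure D2:**
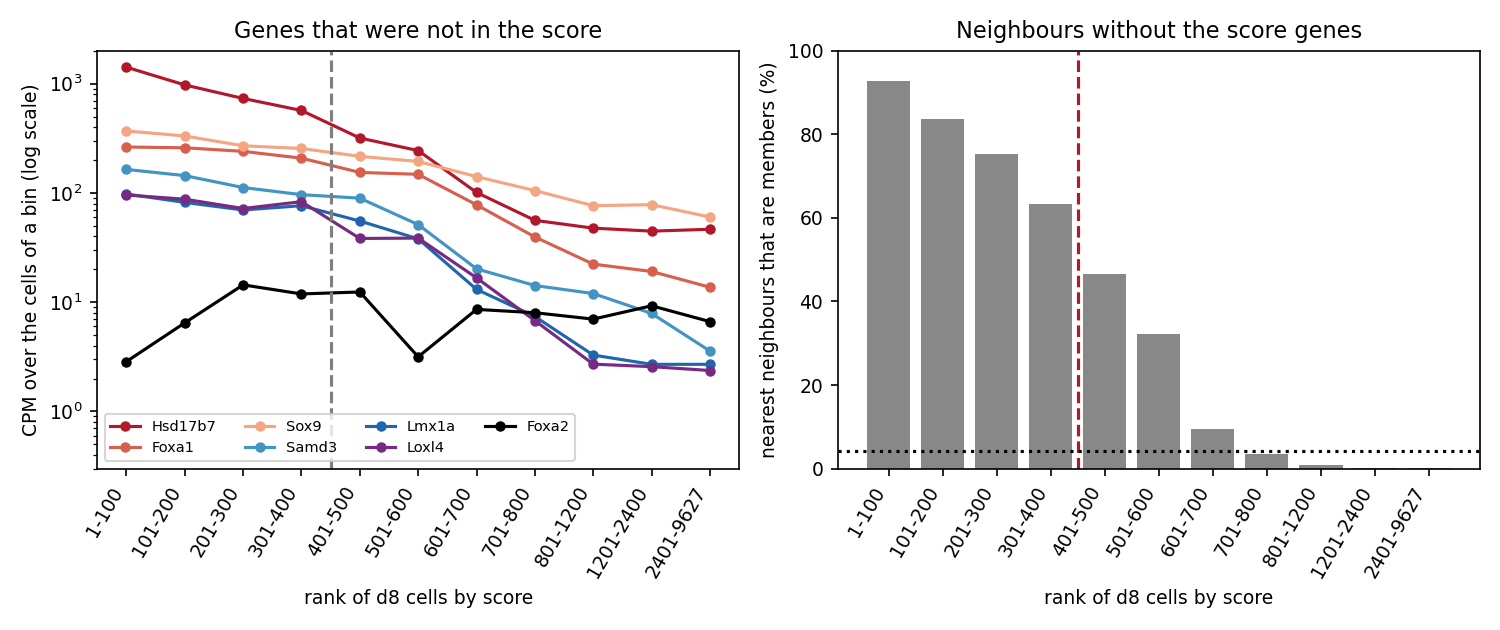
Left, level in CPM (log axis) of 7 genes that were not in the score, in bins of d8 cells ranked by score. Right, percent of the 15 nearest neighbours that are members, with the share of members among d8 cells (4.15%) as a dotted line. The dashed line marks rank 400, and 5 of the 7 genes were picked for their ratio across it. The neighbour share goes on falling past the line to 3.4% in ranks 701 to 800. Foxa2 rises from 2.86 CPM in ranks 1 to 100 to 14.4 CPM in ranks 201 to 300. After that it follows no steady course.

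Across genes, the d8 T/Shh cells were set against the other d8 cells. A gene was counted as higher or lower when its summed CPM differed at least 2-fold, with 1 CPM added to both sides, and 3989 genes were counted, namely those that reached 50 CPM on one side and 100 reads over both sides. Score genes and mitochondrial genes were left out. By this count, 200 genes (5.01%) were higher and 268 (6.72%) were lower. The rule used this contrast, so these counts are a description.

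The leading genes were those with the highest ratio and a read in at least 10% of the members. Loxl4, a lysyl oxidase-like enzyme that crosslinks collagen, led with 84.6 CPM against 3.29 CPM, a 25.7-fold ratio (22.7 to 29.1). Other matrix genes followed, namely Col9a1 and Col11a1, which encode the minor collagens that accompany type II collagen, Hmcn1 (hemicentin 1) and Fbn2 (fibrillin 2). Col9a1 was 22.2-fold higher (19.1 to 25.7), Col11a1 11-fold (9.75 to 12.3), Hmcn1 13.6-fold (12 to 15.4) and Fbn2 9.67-fold (9.12 to 10.3). Col9a1 and Col11a1 had reads in 28.8% and 28.5% of members, and Fbn2, which had a higher level, in 73.8%. The share of cells with a read follows level and depth, and Zbp1, at a similar level to Col9a1 (54.2 CPM), had a read in 31.5% of members.

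Transcription factors were the next group. The LIM homeobox gene Lmx1a, known from the roof plate and from midbrain dopamine neurons, was at 81.3 CPM against 3.72 CPM, a 21.9-fold ratio (19.4 to 24.7), and 51.5% of members had a read. Foxa1, a forkhead factor of notochord, floor plate and endoderm, was at 241 CPM against 18.3 CPM, a 13.2-fold ratio (12.4 to 14). Its lowest, median and highest member had 0, 205 and 1247 CPM, and 81.8% of members had a read. Foxd1, another forkhead factor, was at 91.9 CPM against 7.05 CPM.

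Among the leading genes with a read in most members was Hsd17b7, an enzyme of cholesterol synthesis. It was at 910 CPM against 51.4 CPM, a 17.7-fold ratio (17.1 to 18.3), and 94% of members had a read, against 40.3% of the other d8 cells. The lowest, median and highest member had 0, 673 and 4033 CPM. Gpc3, a cell-surface glypican that binds hedgehog ligands, had a read in 94.8% of members and was at 682 CPM against 72.9 CPM. Bmp3, a BMP family ligand, was at 58.8 CPM against 4.9 CPM, and Sema3d, a secreted semaphorin, was at 99.5 CPM against 6.47 CPM.

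The remaining leading genes were Samd3 (128 against 6.03 CPM), the protocadherin Pcdh17 (72.8 against 4.21 CPM), Limch1 (128 against 9.53 CPM), Tmem163, a zinc transporter (82.5 against 6.37 CPM), the neuronal protease Prss12 (123 against 10.7 CPM), Lmcd1 (160 against 16.4 CPM), the nucleic acid sensor Zbp1 (54.2 against 5.06 CPM) and the phospholipase Plcb1 (50.7 against 4.81 CPM). The reads of the 20 leading genes were spread over many members, and the share held by the highest single cell ran from 1.36% for Foxa1 to 9.92% for Col11a1.

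At the low end were several genes known from macrophages and from fibroblasts. Lyz2 (lysozyme) was at 288 CPM against 2729 CPM, and the other genes among the 12 lowest ratios were Ccl6, Lyz1, Gpnmb, Crabp1, Flrt2, Lrrc15, Mmp3, Thbs2, Clec4n, Ccl2 and Bgn. The median member had 134 CPM of Lyz2 and the median other d8 cell 157 CPM. The 400 macrophage-score cells, none of which was a member, held 305818 of the 475269 Lyz2 reads of the other d8 cells. One member held 16.2% of the Lyz2 reads of all members, at 14773 CPM.

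The label of notochord was then checked against 16 notochord and node genes outside the score. Of the 14 with at least 100 reads, 8 were at least 2-fold higher and 1 was lower, and the median log2 ratio over the 16 was 0.82. Among all 19213 genes with at least 100 reads, 3.58% were at least 2-fold higher, 6.64% were lower, and the median log2 ratio was -0.04. The genes that were higher were Foxa1, Sox5, Sox6, Sox9, Nog, Vtn, Bicc1 and Mnx1. Sox9, which drives type II collagen in cartilage and sheath cells, was at 305 CPM against 67.2 CPM. Its partners Sox5 and Sox6 were at 43.1 against 3.02 CPM and at 57.1 against 6.27 CPM. Nog, the secreted BMP inhibitor noggin, was at 123 CPM against 32.1 CPM.

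Of the defining node genes, Foxa2 and Chrd were not 2-fold higher, and Noto had too few reads to be compared. Noto had 1 read in the 400 members and 5 reads in the other d8 cells. Foxa2 was at 9 CPM (6.72 to 11.8) against 7.05 CPM (6.66 to 7.46), with a read in 8.75% of members and 7.01% of the others. Among the members, Foxa2 was at 2.86 CPM in score ranks 1 to 100 and at 14.4 CPM in ranks 201 to 300. Chrd, the BMP inhibitor chordin, was at 9.34 CPM (7.02 to 12.2) against 6.81 CPM (6.43 to 7.21). Foxj1, the factor of motile cilia, was at 3.11 CPM against 4.9 CPM, and Gsc was at 1.04 CPM against 5.49 CPM. Foxa2 and Chrd had a read in 3.25% and 2.75% of the macrophage-score cells. Their levels there were 2.25 CPM (1.35 to 3.51) and 1.54 CPM (0.82 to 2.63), below those of the members. In 400 d8 cells chosen on Cer1, Lhx1, Eomes, Mixl1 and Gsc, Foxa2 and Chrd were at 72.3 and 37.9 CPM, above the members. They were at 25.9 and 19.6 CPM in 400 cells chosen on Lefty and Fgf8 genes. In 400 cells chosen on keratins and Cldn4 they were lower than in the members, at 3.09 and 2.4 CPM. Outside the score genes, the data thus go against the label in Foxa2 and Chrd and with it in Foxa1 and the Sox genes. Noto had 6 reads in all 9627 d8 cells, so it says nothing on the label. The Sox genes are not independent of the choice, since Sox9 drives Col2a1, a score gene, in cartilage as in the sheath. With Col2a1 left out of the score, the median log2 ratio of the notochord and node list was 0.83, and 365 of those 400 cells were members. Since most cells were the same and the median covers the whole list, this cannot show that the Sox genes are independent of Col2a1. T and Shh chose the cells and say nothing on the label, and the cells are named by them only as the rule that found them.

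The cartilage list was like the Sox genes. Of 12 genes, 9 had at least 100 reads, 6 of these were at least 2-fold higher and 0 were lower, and the median log2 ratio was 0.96. The link protein Hapln1 was at 43.8 CPM against 1.54 CPM, and aggrecan (Acan) was at 20.8 CPM against 0.999 CPM. Reads of Hapln1 were in 20% of members and reads of Acan in 10.5%, and 1 cell held 19.2% of the Acan reads. Genes of mature cartilage were near 0, with Matn1 at 1.73 CPM and Comp at 0 CPM in the members. The score used Col2a1, so this list is not independent of the choice.

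The hedgehog pathway was mixed. Of its 14 genes, 2 were at least 2-fold higher and 1 was lower, with a median log2 ratio of 0.32. Cdon, a co-receptor, was at 103 CPM against 31.7 CPM, and Disp1, which releases the ligand from the cell, was at 21.3 CPM against 8.57 CPM. Gas1, another co-receptor, was at 32.9 CPM against 83.7 CPM. The target genes did not pass 2-fold on the scale with 1 CPM added. Ptch1 was at 45.2 CPM against 25.9 CPM, and it was at 46.2 CPM in the 400 d8 cells chosen on Lefty and Fgf8 genes. Gli1 was at 2.6 CPM (1.45 to 4.28) against 1.33 CPM (1.16 to 1.51), with intervals that overlap and 15 reads in 9 members.

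In the Wnt list, 4 of 16 genes with at least 100 reads were higher and 2 were lower. The 4 were Rspo3, a secreted amplifier of Wnt signalling (285 against 39.6 CPM), its receptor Lgr5 (54.2 against 6.81 CPM), the ligand Wnt5b (22.8 against 3.9 CPM) and the inhibitor Nkd1 (24.9 against 10.9 CPM). Wnt3a, the ligand of the tail bud, had 0 CPM in the members, and the target Axin2 was at 33.2 CPM against 18.8 CPM. In the BMP list 3 of 15 genes were higher and 1 was lower. The targets Id1 (152 against 72.6 CPM) and Smad6 (15.6 against 5.32 CPM) were higher together with Nog, while the inhibitor Grem1 was lower, at 74.9 CPM against 378 CPM. In the FGF list, 0 of 15 genes were higher and 5 were lower, among them Fgf5 and Fgf8.

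Lists of neighbouring axial and endodermal types were not higher as a whole. Their median log2 ratios ran from -1.35 (primitive streak) to -0.08 (floor plate). Of the primitive streak list, 0 of 10 genes with at least 100 reads were higher and 8 were lower, such as Eomes (5.88 against 18.9 CPM) and Nodal (13.5 against 44.4 CPM). Of the tail bud list, 0 of 6 genes passed 2-fold in either direction. Of the definitive endoderm list, 1 of 9 was higher (Gata6, 23.5 against 10.9 CPM) and 2 were lower. Floor plate genes divided, with Lmx1a and Spon1 (65.6 against 11.7 CPM) higher, Nkx6-1 lower (5.71 against 13.8 CPM), and Nkx2-2 at 0.519 CPM in the members. In the cilia list, 0 of 11 genes passed 2-fold in either direction.

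Pomc and Tshr stood without the genes of their usual tissues. The pituitary factors Tbx19 and Lhx3 and the prohormone convertase Pcsk1, which cleaves POMC, had 0 CPM in the members, where 3 reads would be 0.519 CPM, and the carboxypeptidase Cpe was lower, at 36.9 CPM with a ratio of 0.184 (0.16 to 0.211) to the other d8 cells. In that list 0 of 6 genes with at least 100 reads were higher and 2 were lower. Of the thyroid list, 0 of 5 were higher and 1 was lower, with Pax8 at 2.94 CPM and Nkx2-1 at 1.04 CPM in the members. Among the other carbonic anhydrases, 1 was higher, Car14 (47.6 against 7.61 CPM).

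Markers of other cell types in the culture were lower as lists. At least 2-fold lower were 11 of 13 fibroblast genes, 8 of 10 macrophage genes, 5 of 8 smooth muscle genes and 8 of 13 epithelial genes, and 0 of any of these lists were higher. The summed macrophage list had a median of 198 CPM per member, from 0 to 15977 CPM, and of 255 CPM per other d8 cell. The summed fibroblast list had a median of 463 CPM per member, from 0 to 6688 CPM, and of 712 CPM per other d8 cell. The epithelial list went the other way per cell, with medians of 1495 and 1032 CPM. Krt8, a keratin of simple epithelia, was read in 97.5% of members and 90% of the other d8 cells, at 997 against 1185 CPM. The epithelial sum reached 8088 CPM in the highest member and 70741 CPM in the highest other d8 cell. The lower counts thus depend on which cells made up the other side. Without the 400 macrophage-score cells there, 240 genes were lower, of which 232 were among the 268, and 198 were higher.

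Proliferation genes were higher as a list. All 14 had a ratio above 1 with an interval that did not reach 1, 4 were at least 2-fold higher, and the median log2 ratio was 0.80. Top2a was at 281 CPM against 126 CPM and Mki67 at 85.8 CPM against 43.3 CPM. High Top2a was not particular to the members. In other sets of 400 d8 cells it was at 309 CPM (chosen on Lefty and Fgf8 genes), 201 CPM (Cer1, Lhx1, Eomes, Mixl1 and Gsc), 80.7 CPM (keratins and Cldn4) and 48.4 CPM (macrophage genes). Pluripotency genes were lower, with 0 of 12 at least 2-fold higher and 5 lower, and Pou5f1 was at 26.6 CPM against 57.8 CPM. Fibronectin (Fn1), the one gene of the basement membrane and matrix list that was higher, was at 3411 CPM against 1159 CPM and had a read in every member. Of 28 Hox genes with at least 100 reads, 3 were higher, among them Hoxa5 (12.6 against 4.76 CPM) and Hoxb2 (21.1 against 9.19 CPM), and 11 were lower, among them Hoxb9 (7.79 against 26.2 CPM) and Hoxc8 (4.15 against 15.7 CPM). The lists for caveolae (0 higher and 3 lower of 5), neural genes (1 and 2 of 8, with Fabp7 at 149 against 32.8 CPM) and stress genes (0 and 3 of 11) had more lower than higher genes. Of 5 sex-linked genes 0 were higher and 2 were lower, and the Y-linked Ddx3y was at 5.19 CPM against 32.7 CPM.

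**Figure D3:**
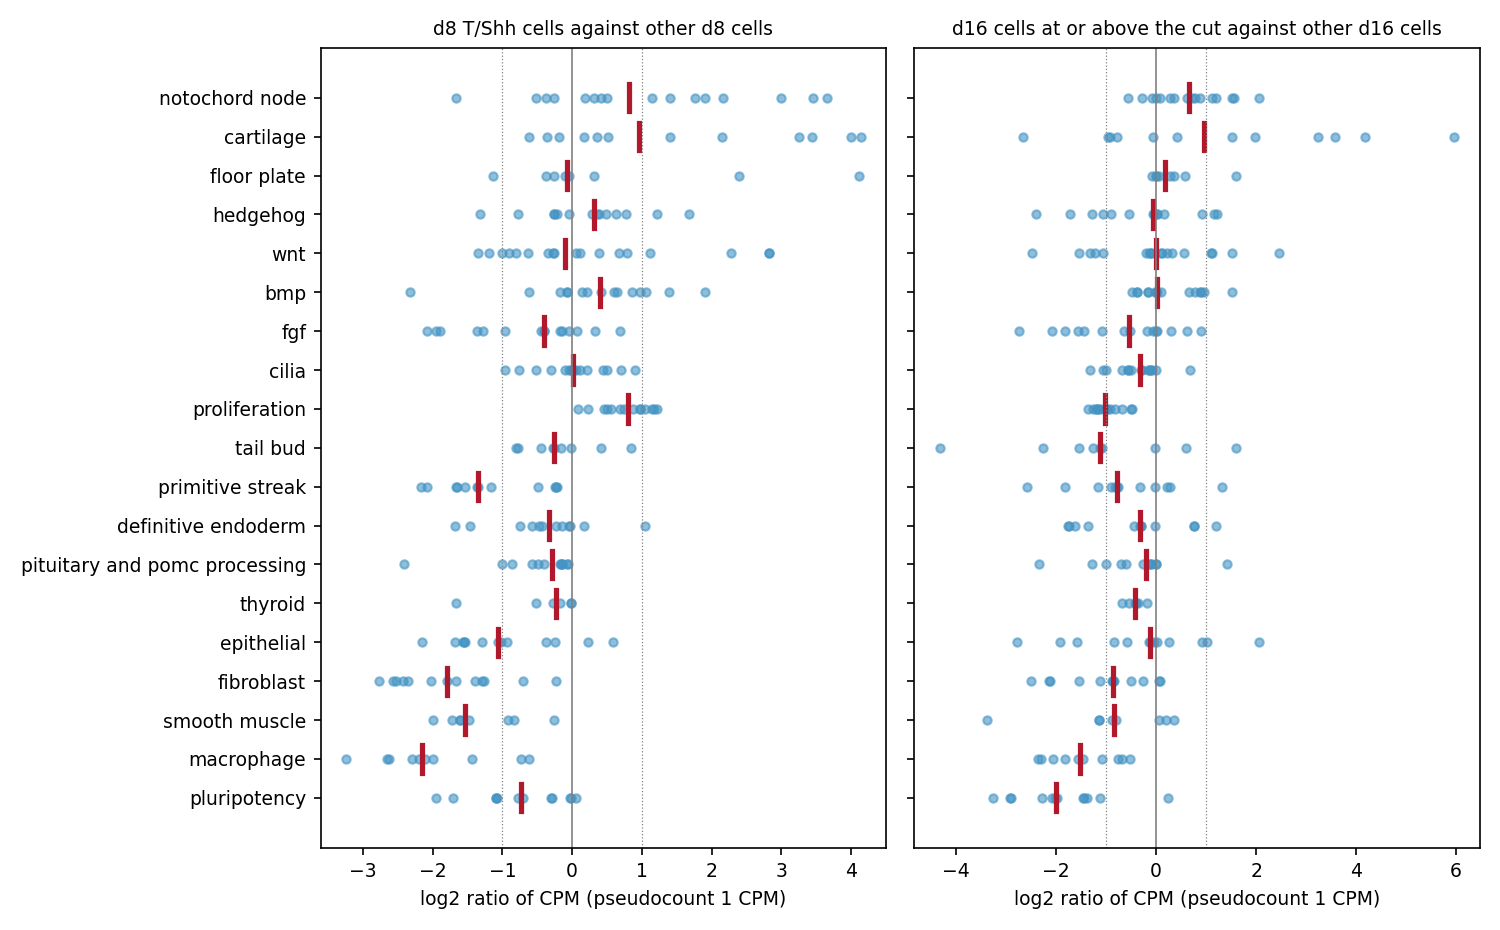
Log2 ratio of CPM (1 CPM added to both sides) for each gene of 19 lists, score genes left out, at d8 (left) and at d16 (right), with the median of each list as a red bar and dotted lines at 2-fold. Single genes of the notochord and cartilage lists reach log2 ratios of about 4 at d8, the macrophage and fibroblast lists lie to the left of 0, and the proliferation list lies right of 0 at d8 and left of it at d16.

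The members hardly overlapped other sets of 400 d8 cells. The cells with the highest score over Cer1, Lhx1, Eomes, Mixl1 and Gsc shared 1 cell with the members, those chosen on keratins and Cldn4 shared 1, and those chosen on Lefty and Fgf8 genes or on macrophage genes shared 0. A shared cell is 0.25% of a set, and members are 4.15% of all d8 cells. The genes that chose these sets were lower in the members as lists, with median log2 ratios of -1.53, -0.38, -2.13 and -2.30 in this order. A small overlap is thus not independent of that choice. The first of these sets shared part of the pattern of the members, in genes picked out after their values were seen. Its Foxa1 was at 88.2 CPM (80.6 to 96.3), Samd3 at 43.7 CPM (38.4 to 49.6), Prss12 at 53 CPM (47.2 to 59.4) and Gpc3 at 274 CPM (260 to 288), each between the other d8 cells and the members. Lgr5 was at 37 CPM and Shh at 70.4 CPM in that set, while Hsd17b7 (50.9 CPM) and Loxl4 (2.14 CPM) were no higher than in the other d8 cells. T was at 45.7 CPM in these cells and at 22.5 CPM in the keratin cells, where Foxa1 was at 11.1 CPM. The keratin cells had Car3 at 199 CPM, the only score gene above its level in the other d8 cells by over 2-fold there, and 1 cell held 17% of these reads.

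Cells at or above the lowest member score were also counted in the other tags, which the rule did not use. There were 61 of 4315 d16 cells (1.41%, exact binomial interval 1.08 to 1.81), 47 of 1826 primed-tagged cells (2.57%, 1.9 to 3.41), 11 of 801 naive-tagged cells (1.37%, 0.687 to 2.44) and 8 of 1151 d16+10p-tagged cells (0.695%, 0.301 to 1.36). In all, 127 of 8093 cells (1.57%) reached the limit, so such cells were found under each tag. By the study's methods, fewer primed and fewer naive cells were loaded than carry these tags in the table. Cells that carry the tag of another population cannot be told apart here from cells of that population.

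The levels in the primed-tagged cells were near those of the d8 T/Shh cells. T was at 1165 CPM (1079 to 1256), Shh at 814 CPM (742 to 890), Col2a1 at 1390 CPM (1296 to 1489) and Pomc at 650 CPM (586 to 719). Reads of Pomc were in 18 of the 47 cells, or 38.3%, and in 39.2% of the members, and 1 primed-tagged cell held 23.5% of them. All 20 leading genes of the d8 T/Shh cells were at least 2-fold higher in these 47 cells than in the other 1779 primed-tagged cells, with log2 ratios of 1.75 to 4.59. Those 1779 cells could include feeder cells. Of the 12 lowest genes, 8 were at least 2-fold lower there, with log2 ratios of -2.40 to -0.33 over the 12. Among all 13324 genes with at least 100 reads in this comparison, 5.85% were at least 2-fold higher and 15% lower, and among the 4078 that also reached 50 CPM, 6.01% were higher and 5.1% lower. Foxa1 was at 181 CPM against 23.2 CPM, and Hsd17b7 at 850 CPM against 51.5 CPM. Foxa2 was at 15.5 CPM (7.08 to 29.4), with 9 reads in 4 cells, and Noto had 0 reads, where 3 reads would be 5.16 CPM.

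The d16 cells differed more. T was at 622 CPM (570 to 677) and Shh at 381 CPM (341 to 425), both below the d8 T/Shh cells, and 35 of 61 cells had reads of both. Pomc was at 1967 CPM (1874 to 2063) and Car3 at 3967 CPM (3834 to 4102), both above them. A Pomc read was found in 62.3% of the d16 cells and a Car3 read in 98.4%. After thinning to 5000 reads the shares with a Pomc read were 61.1% at d16 and 31.2% at d8. The score that both groups had to reach is a mean over all 7 genes, so a cell with less T and Shh could reach it only through the other genes.

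Among genes outside the score, 19 of the 20 leading genes were at least 2-fold higher in the 61 d16 cells than in the other d16 cells, the exception being Fbn2 with a log2 ratio of 0.79. Of the 12 lowest genes, 6 were at least 2-fold lower. The share of all genes that passed 2-fold upwards was 3.85% of 4023 genes with at least 50 CPM, and 4.7% passed downwards. With 100 reads alone, 4.14% of 16091 genes passed upwards and 15.1% downwards. Of the 3491 genes that could be counted at both times, 143 were higher at d8 and 98 at d16, and 68 were higher at both, which is 47.6% of the d8 genes and 69.4% of the d16 genes. Of the lower genes 24 were shared, 13.6% of 176 and 25.8% of 93. The cells that each group was set against differ between d8 and d16.

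Hp, Acan, Fgg and AW112010 were among the highest ratios at d16. Hp (haptoglobin, a plasma protein of liver) was at 1413 CPM against 21.6 CPM in the other d16 cells and at 3.63 CPM in the d8 T/Shh cells. Fgg, the gamma chain of fibrinogen, was at 714 CPM against 31.9 CPM and at 5.54 CPM at d8. Acan was at 237 CPM (206 to 272) against 2.82 CPM, and at 20.8 CPM at d8. AW112010 was at 67.8 CPM against 2.55 CPM. Hp was read in 26 of the 61 cells, Fgg in 32 and Acan in 25. The single highest cell held 21.7% of the Hp reads, 12.1% of the Fgg reads and 18.7% of the Acan reads. The 61 cells had 855154 reads in all, so genes of low level are not well measured there. Foxa2 was at 10.5 CPM (4.81 to 20), and Noto had 0 reads, where 3 reads would be 3.51 CPM.

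**Figure D4:**
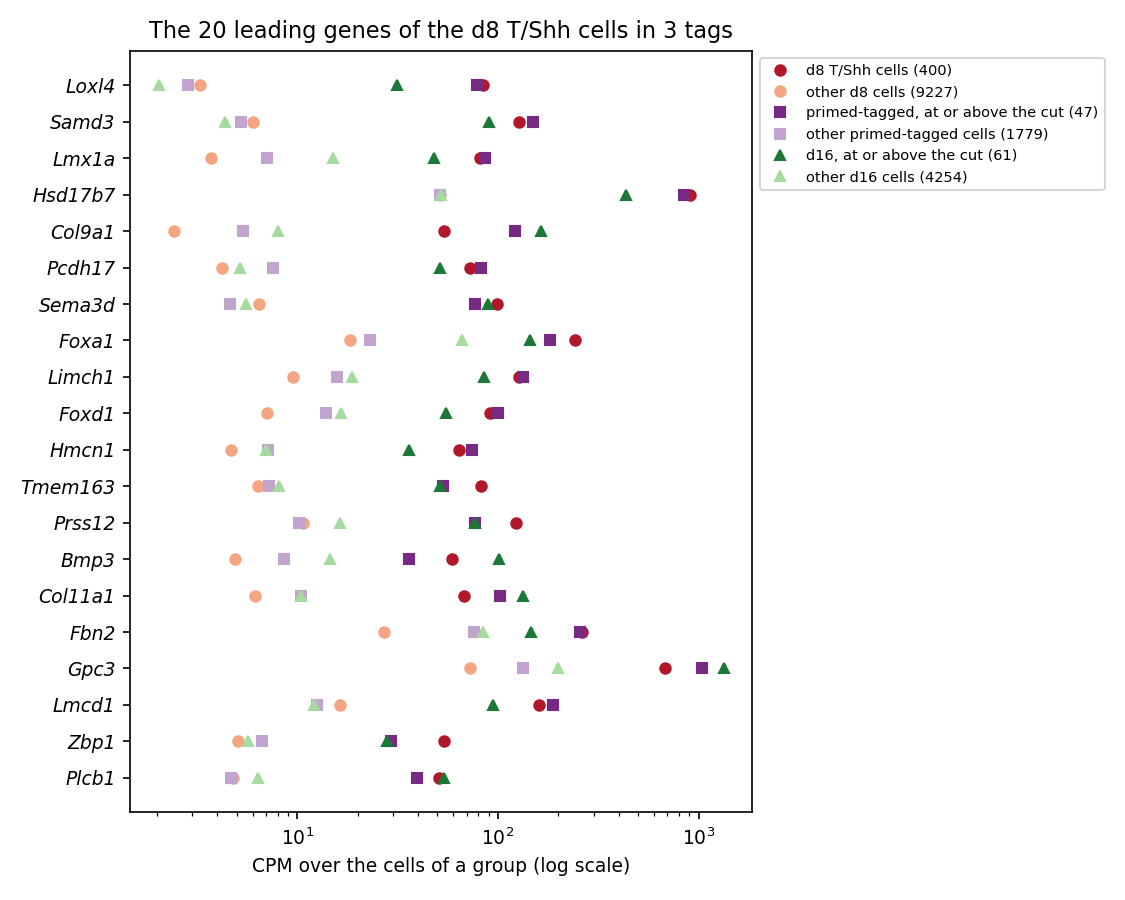
Level in CPM (log axis) of the 20 leading genes of the d8 T/Shh cells in 6 groups of cells, circles for d8, squares for the primed tag and triangles for d16, dark for cells at or above the limit and light for the others. The dark symbols lie right of the light symbols of the same tag for all 20 genes, by less than 2-fold only for Fbn2 at d16.

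The members were last divided by Pomc, a division that was chosen after its values were seen. The 157 members with a Pomc read had a median of 14382 reads and the 243 without one a median of 12209 reads, so the former were deeper. T was at 1098 CPM (1057 to 1140) with Pomc and at 1333 CPM (1294 to 1373) without. Col2a1 was at 1290 CPM (1245 to 1336) with and 1610 CPM (1568 to 1654) without. Sema3d was at 143 CPM (128 to 158) with and 68 CPM (59.4 to 77.5) without. Tdgf1, the Nodal co-receptor Cripto, was at 86 CPM (74.8 to 98.5) with and 41.3 CPM (34.7 to 48.8) without, and Ifitm1 at 101 CPM (88.9 to 115) with and 55.7 CPM (48 to 64.3) without. Fn1 was at 3402 and 3418 CPM. The members with a Pomc read thus held somewhat less T and Col2a1 and about 2-fold more Sema3d and Tdgf1, within the same population. A Pomc read was also found in 15% of the macrophage-score cells, so some of the 157 members could be at background.

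Some of these differences were seen in the other tags. T and Shh were lower with a Pomc read in the 61 d16 cells (T 469 against 850 CPM, Shh 219 against 623 CPM) and in the 47 primed-tagged cells (T 892 against 1365 CPM, Shh 668 against 921 CPM). Ifitm1 was higher with Pomc in the d16 cells, at 184 CPM (149 to 225) against 78.6 CPM (51.8 to 114). In the primed-tagged cells Ifitm1 was at 122 CPM (82.4 to 174) against 56.6 CPM (34.1 to 88.4), with intervals that overlap. Sema3d was at 93.9 CPM (69.2 to 124) against 81.5 CPM (54.1 to 118) in the d16 cells and at 102 CPM (65.9 to 150) against 59.6 CPM (36.4 to 92) in the primed-tagged cells, with intervals that overlap in both. Tdgf1 was at 58.7 against 52.4 CPM in the d16 cells and at 159 against 155 CPM in the primed-tagged cells. The median reads with and without a Pomc read were 10782 and 17039 in the d16 cells and 11302 and 9368 in the primed-tagged cells. Cells without Pomc had to reach the limit through the other score genes, T and Shh among them, and the part of depth and of the rule in these differences was not tested.

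**Figure D5:**
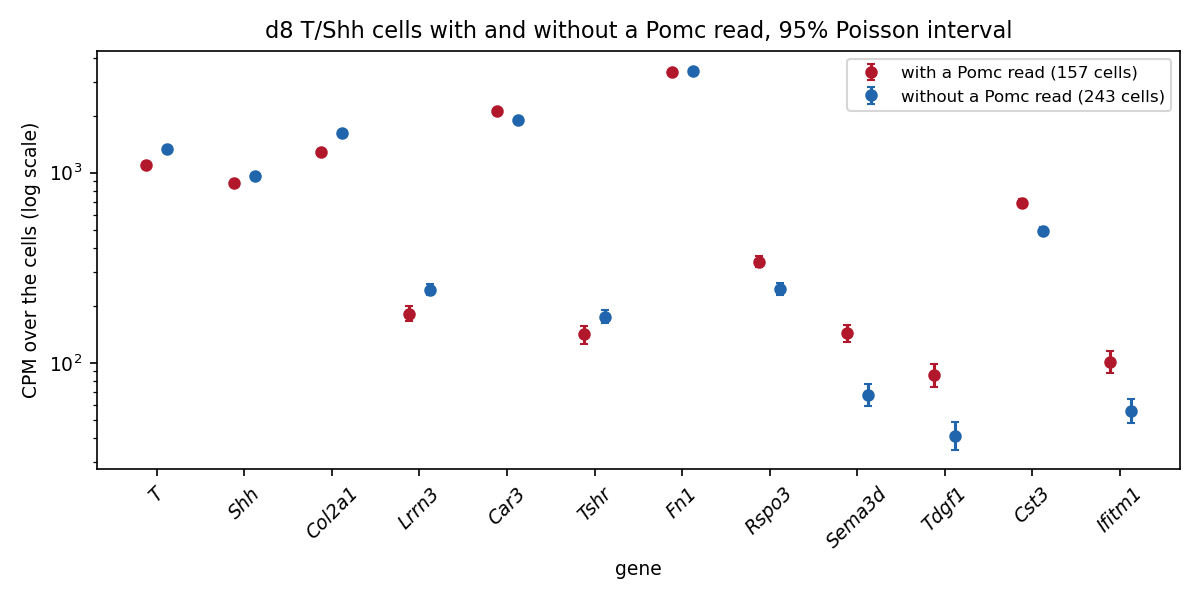
Level in CPM (log axis) of 12 genes in the d8 T/Shh cells with a Pomc read (157 cells) and without one (243 cells), with 95% Poisson intervals that cover counting error only. T and Col2a1 are lower and Sema3d, Tdgf1, Ifitm1 and Rspo3 higher in the cells with Pomc, and Fn1 lies at the same level in both.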

How the data were processed

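The deposited values are raw read counts, 1 value for each gene symbol in each cell. As the study's methods describe, the authors trimmed adapters with cutadapt 2.10, mapped cDNA reads with Bowtie2 2.3.4.1 to GRCm38.p6 transcripts, counted reads per symbol, removed barcodes below the knee-plot inflection, assigned each cell to its leading tag and discarded cells with ambiguous tags as doublets. Doublets within a tag were not removed, and no doublet caller was run here. No molecular identifiers were described, so amplified reads are not independent and intervals (exact Poisson or binomial) cover counting error only. The table held 307121033 reads of 33963 genes in 17720 cells, with 0 barcodes shared between tags. Cells at d8 had 3183 to 111822 reads.

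Reads were summed over cells with Python 3.11.15 and numpy 2.4.6. Neighbours were found with scanpy 1.11.5 and scikit-learn 1.9.0, and TMM factors with edgeR 4.0.16. Ratios were checked on simulated sums. Members, score genes and lists were chosen with earlier results of these data known. The text names the score genes, listed genes and the 20 highest and 12 lowest ratios at d8 (5 highest at d16), and some of these are not reported here. Gene positions are from GENCODE M21 and promoters from RefSeq. Alternatives changed the member number, score, pseudocount, scaling, depth and filters.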

Additional observations from a re-analysis of the deposited data

Results flagged for a closer look

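The median log2 ratio of the proliferation list was 0.80 in the d8 T/Shh cells against the other d8 cells and -1.02 in the d16 cells at or above the limit against the other d16 cells. The caveolae list of 5 genes had medians of -1.28 at d8 and 0.68 at d16. Both lists were picked out because their medians had opposite signs and were at least 0.5 in size at both times. Each time point was 1 sample, and the difference was not tested. Top2a was at 281 CPM in the d8 T/Shh cells and 145 CPM in the d16 cells, and at 126 and 287 CPM in the other cells of each tag. Cav1 was at 58.7 CPM in the d8 T/Shh cells and 66.7 CPM in the d16 cells, and at 59.7 and 18.8 CPM in the other cells of each tag.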

How the results depend on the processing

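No paired analysis was possible because each population was 1 sample. With the 800 highest scores, 113 genes were higher and 152 lower, 112 and 147 of them among those of the 400 members. Without the CPM filter the counts were 688 and 1276, by construction over more genes. Under the other 11 settings the counts stayed within 1.5 times those of the text, 168 to 229 higher and 218 to 289 lower. One of these, requiring reads of at least 3 score genes, removed no member and so says nothing, and the one without the macrophage-score cells was chosen after seeing the data. The median log2 ratio of the notochord list was 0.31 with a pseudocount of 10 CPM, which shrinks low genes, and 0.62 to 0.99 under the other settings. The share of neighbours that are members was 77.3% with 50 neighbours, 56.1% for the 200 and 74.3% for the 800 highest scores. The median log2 ratio of a score gene in cells chosen on the other 6 was 4.58, and 4.49 after thinning, 4.09 with a pseudocount of 10 CPM and 4.47 from the mean of per-cell CPM. In the other tags, 0.643% of cells reached the score of the 200th and 5.04% that of the 800th d8 cell. The cause of these shifts was not tested, and under these settings no direction was reversed. No alternative was run for the d16 comparison. Levels under about 10 CPM rest on few reads in the members. Foxa2 and Chrd had intervals that overlapped those of the other d8 cells but lay above those of the macrophage-score cells. For most other genes at such levels the macrophage-score cells are not reported here.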

Other observations

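In the 61 d16 cells divided by Pomc, Rspo3 was at 149 CPM (117 to 186) in the 38 cells with a Pomc read and 66.9 CPM (42.4 to 100) in the 23 cells without one. The d8 T/Shh cells had the same direction, at 340 CPM (318 to 364) and 244 CPM (228 to 262). The 47 primed-tagged cells had the opposite one, at 151 CPM (106 to 208) and 265 CPM (213 to 326). The difference between the tags was not tested.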
